A study of Rattus norvegicus with 18 samples.

Results

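Cytosolic ribosomal protein mRNAs were measured in 9 colonies of fetal rat calvaria cells, each colony grown from a single sorted cell. Calvaria is the flat bone of the skull, and its cells in culture include precursors of osteoblasts, the bone-forming cells. The members were chosen by gene name: every probe set whose single annotated symbol began with Rpl or Rps and a number, together with Rplp0, Rplp1, Rplp2 and Rpsa, without the Rps6k kinases. This gave 54 of 31142 probe sets that are not array controls, 50 on the RAE230A array (chip A) and 4 on the RAE230B array (chip B), for 46 of 13810 genes with a symbol of their own, 32 of the large and 14 of the small ribosomal subunit. Another 38 probe sets carried a ribosomal protein symbol beside other symbols and were left out, so that genes such as Rplp1, Rps19, Rps27 and Rps4x were not read.

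The colonies were typed by expression of osteocalcin, a bone matrix protein, and adipsin, a protease that adipocytes secrete. Osteocalcin colonies carried the first marker, both-marker colonies (both I, II and III) carried the 2 markers together, and neither colonies lacked them, with 3 colonies of each type numbered I, II and III. All colonies were grown for 4 weeks in alpha-MEM containing serum of fetal calves, ascorbic acid, BGP and Dex (abbreviations of the labels), and RNA of 100 to 300 cells per colony was amplified before hybridization. Strain, sex and exact fetal age are not given in the sources used here, and the labels do not tell if the 3 colonies of a type stem from different preparations of cells; p-values measure the spread between these colonies only.

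The cytosolic ribosome translates all nuclear-encoded mRNAs, and most of its proteins are needed in the same number of copies. Their mRNAs are among the most abundant in growing cells and begin with a terminal oligopyrimidine (TOP) tract, a run of C and T at the 5′ end through which the kinase mTOR and the RNA-binding protein Larp1 control their translation. An mRNA level therefore need not follow the amount of protein made. Rps23, at the decoding centre, and Rps28, near the mRNA exit, are small-subunit proteins that mark the set.

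RefSeq promoter windows of build GRCr8 were found for 39 of the 46 genes, 36 of them tested. They are shown because the start is a feature that the naming rule did not use. Each window runs 5′ to 3′ from 20 bases before the annotated start to 20 bases after the first transcribed base, 41 bases in all, and capitals mark its longest run of C and T. The 13 genes shown are those that differed without overlap in a comparison, the markers Rps23 and Rps28, and Rpl35, Rpl34, Rplp0 and Rpsa. These last are only some of the genes described for neither II or for their several probe sets. Windows of others are not shown, such as those of Rpl13a (longest run 14 bases), Rps15a (10), Rpl24 (6) and Rpl7l1 (5).
Rps23, chr2:23814497-23814537, plus strand: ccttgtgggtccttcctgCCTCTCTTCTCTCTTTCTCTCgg
Rps28, chr7:15311313-15311353, minus strand: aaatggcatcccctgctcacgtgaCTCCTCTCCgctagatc
Rpl35, chr3:43165901-43165941, minus strand: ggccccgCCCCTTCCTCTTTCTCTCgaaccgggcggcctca
Rpl34, chr2:221962263-221962303, minus strand: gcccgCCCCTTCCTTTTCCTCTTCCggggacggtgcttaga
Rplp0, chr12:46718370-46718410, minus strand: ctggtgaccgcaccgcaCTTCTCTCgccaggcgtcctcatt
Rpl4, chr8:73566457-73566497, plus strand: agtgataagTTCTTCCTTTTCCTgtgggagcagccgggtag
Rps3, chr1:163195756-163195796, minus strand: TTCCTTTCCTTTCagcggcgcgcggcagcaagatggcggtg
Rpl6, chr12:41011670-41011710, minus strand: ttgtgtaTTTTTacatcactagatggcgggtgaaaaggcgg
Rps27l, chr8:76443638-76443678, plus strand: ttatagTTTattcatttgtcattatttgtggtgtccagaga
Rpl12, chr3:36661920-36661960, plus strand: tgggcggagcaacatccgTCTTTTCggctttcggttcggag
Rpl21, chr12:13386133-13386173, minus strand: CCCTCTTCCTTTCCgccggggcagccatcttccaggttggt
Rpl3, chr7:113507970-113508010, minus strand: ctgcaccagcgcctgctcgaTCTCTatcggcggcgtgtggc
Rpsa, chr8:128728859-128728899, plus strand: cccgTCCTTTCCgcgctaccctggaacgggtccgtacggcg

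Long pyrimidine runs were frequent near the members' starts. The run was 21 bases in Rps23 and 18 in Rpl35 and crossed the annotated start in both, whereas it ended before the start in Rps3 and was 3 bases in Rps27l. A run of 8 or more bases lay in 64.1% of the 39 windows (25 genes), against 15.9% of all 33469 promoters in the table, and the median longest run was 10 bases against 5. Runs that ended before the start were counted too. An annotated start at C with 4 more C or T after it was rarer, in 28.2% of the members (11 of 39) against 2.63% of all promoters. The letters CTTTCC occurred in 28.2% of the members' windows and CTTCC in 30.8%, both read on the strand of the gene, against 1.77% and 8.44% of all promoters; neither motif contains the other. Over the whole 300 bases and both strands, the ETS core CCGGAAG was in 25.6% (all promoters 8.75%), the YY1 core AAGATGG in 20.5% (7.01%), the SP1 box GGGCGG in 61.5% (33.1%) and TATAAA in 15.4% (14.2%). A match describes letters only and shows no binding.

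Of the 46 genes, 43 passed the filter on low signals and were tested, 29 of the large and 14 of the small subunit, all read on chip A. Rpl28 and Rpl39l1 on chip B and Rpl3l on chip A, a muscle paralog of Rpl3, did not pass. Signals below are those deposited, rescaled so that each array has a 2%-trimmed mean of 1500. Log2 levels add a pseudocount of 239 on chip A, so that differences of dim probe sets are understated. Signals of different probe sets were not set against each other, because each has its own affinity.

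An array stood apart by its scale, neither II by its control signals and neither III by its probe sets as a whole. The chip A array of osteocalcin I had a deposited trimmed mean of 64.4, where the others had 1500, and its record names another day; rescaling brought it to the same mean. In neither II the GAPDH 3′ control signal on chip A was 1275, against 18061 to 68089 in the other 8 colonies. The ratio of its 3′ to middle signals was 8.81 for GAPDH and 9.47 for beta-actin in neither II, against at most 3.86 and 3.25 elsewhere. The 3′ to 5′ ratio of GAPDH on chip A was lowest in neither II, 2.08 against 8.64 to 13.8 elsewhere. For beta-actin it was 11.7 on chip A, within the 5.71 to 14.6 elsewhere, and 48.7 on chip B, above 5.32 to 17.0. The ratios thus did not all point the same way. These 3′ ratios are measures of RNA integrity and of amplification from the 3′ end, and their part in the results was not tested. In neither III, 31.9% of kept chip A probe sets lay over 1 log2 unit from the median of the other colonies. This share was 15.5% in neither II and at most 12.5% in the others.

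Ribosomal protein mRNA levels differed more between colonies of one type than between types. The mean log2 level over the 43 genes was 14.53, 15.15 and 14.87 in osteocalcin I, II and III. It was 14.59, 14.36 and 15.07 in both I, II and III, and 14.41, 14.88 and 14.81 in neither I, II and III. Each type thus held a low and a high colony, and the types overlapped, with means of 14.85 ± 0.31, 14.67 ± 0.37 and 14.70 ± 0.25 (SD, n = 3 each). The 50 chip A probe sets together took from 4.25% of the array signal in neither I to 6.92% in osteocalcin II. Fewer expressing cells and less RNA per cell cannot be told apart in RNA of whole colonies.

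**Figure D1:**
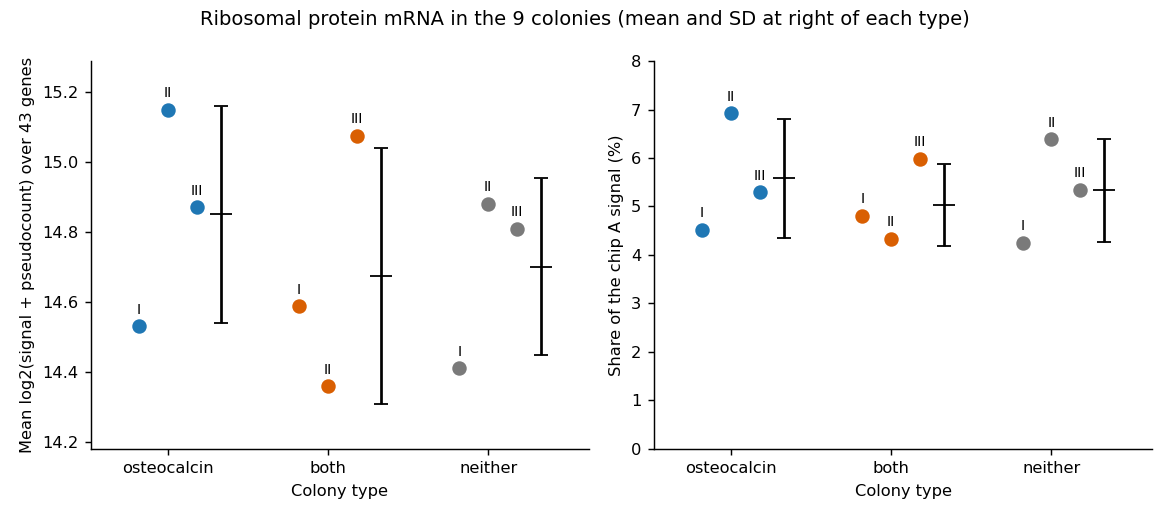
The left panel plots the mean log2(signal + pseudocount) of the 43 tested ribosomal protein genes and the right panel the share of the chip A signal in percent, 1 point per colony (I, II, III), with the mean and SD of the 3 colonies beside each type. Osteocalcin II and both III lie highest and both II and neither I lowest on the left, and no type is separate from the others.

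Within a type, most genes ranked the 3 colonies alike. Among the osteocalcin colonies osteocalcin II was highest for 37 of 43 genes, and among the both-marker colonies, both III was highest for 39. Neither I was the lowest of the neither colonies for 29 genes and both II the lowest of the both-marker colonies for 32. Over all 9 colonies, the highest value fell in neither II for 16 genes, in osteocalcin II for 14 and in both III for 7. The median range within a type was 0.65 log2 units in osteocalcin colonies, 0.79 in both-marker colonies and 0.87 in neither colonies. Both III was processed on fluidics station 2 with the neither colonies, while both I and both II shared station 1 with the osteocalcin colonies, and the part of the station in this order was not tested.

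Large and small subunit genes had similar profiles. The 2 subunit means had r = 0.968 over the 9 colonies, given as a description of points that share array and scaling. The median r of a gene with the mean of the other members was 0.686, and 14 of 43 genes had r above 0.8. Among pairs of members the median r was 0.465 and 715 of 903 pairs were positive, whereas over all kept probe sets of chip A the median was -0.0015. Without neither II the median r of a gene with the others was 0.819. The genes closest to the mean were Rpl24 (r = 0.961), Rpl27 (0.932), Rpsa (0.932), Rpl18 (0.918) and Rpl11 (0.912). At the other end stood Rpl14 (r = -0.282), Rpl7l1 (-0.267), Rps9 (-0.0615), Rpl6 (-0.0546) and Rpl4 (0.122). Without neither II, Rpl6 had r = 0.513 and Rpl4 0.289, while Rpl14 (-0.234), Rpl7l1 (-0.506) and Rps9 (-0.131) stayed negative.

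Among genes that are no members, those most like the members' mean over the 9 colonies were Ubxn6, an adaptor of the segregase VCP (r = 0.979), Ndufa11, a complex I subunit (0.962), Fdx2, a mitochondrial ferredoxin (0.940), and Txnl4a, a spliceosome protein (0.937). Abracl, Fam174c, Dnpep, the mitochondrial ribosomal protein gene Mrps28, Ubl5 and Elob followed with r from 0.919 to 0.936. They were the highest of 7894 candidates, and no p is given.

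The spread of the members over the colonies was described by their SD. The median SD over 9 colonies was 0.445 log2 units for the 43 genes and 0.550 for the 9425 kept probe sets of chip A, and colony type accounted for a median of 19.1% of a member's variance, against 23.7% over all kept probe sets. The steadiest were Rps3a (SD 0.24), a surface protein of the small subunit, Rpl7 (0.27) and Rpl26 (0.33). The most variable were Rps4y2 (1.26), Rpl6 (0.80) and Rplp0 (0.78). Signals of a gene differed by a median of 2.50-fold between its lowest and highest colony, and by over 4-fold for 4 genes.

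Rps23 and Rps28 were bright in every colony. Rps23 had signals of 120900, 186500 and 146800 in osteocalcin I, II and III, of 103100, 106400 and 165200 in both I, II and III and of 136600, 256000 and 144100 in neither I, II and III. Neither II was the highest and both I the lowest, and all types overlapped. Rps28 had 79040, 174300 and 111900 in the osteocalcin type, 75570, 58740 and 143700 in the type with both markers and 77650, 188900 and 134500 in the type with neither. Here too neither II was highest and the types overlapped. Both-marker colonies differed from osteocalcin colonies by -0.29 log2 units in Rps23 (SE 0.44) and by -0.42 in Rps28 (SE 0.51), neither of them called (limma, adjusted p = 0.9998 for each). Leaving out 1 colony gave -0.51 (without both III) to -0.13 (without osteocalcin II) for Rps23 and -0.79 to -0.13, for the same colonies, for Rps28. With quantile normalization the differences were +0.46 and +0.023.

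The comparison of both with osteocalcin colonies asks what accompanies adipsin. Of the 43 genes, 34 had a lower and 9 a higher mean in both-marker colonies, with a median of -0.18 log2 units (1.14-fold), while 48.8% of the 19312 probe sets tested were higher and their median was -0.01. No member passed limma's test (0 of 43, with 0 at an unadjusted p under 0.05), where 0.0% of all probe sets passed (0 of 19312, 654 at an unadjusted p under 0.05). The large subunit had 24 of 29 genes lower and the small subunit 10 of 14, with medians of -0.18 and -0.17. The median moved to -0.03 without both II, to -0.04 without osteocalcin II and to -0.42 without both III. Within fluidics station 1, which held both I, both II and all osteocalcin colonies, it was the same -0.42, with 37 of 43 genes lower. These are the same chip A arrays as without both III, so the value is no separate check. With quantile normalization the median over all colonies was +0.02 with 20 of 43 lower, so the direction differed with the scaling.

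A single gene had all both-marker colonies below all osteocalcin colonies. This is 2.33% of the members, against 5.49% of all probe sets, and 0 members lay the other way round, against 4.6%. The gene was Rpl12, which encodes a protein at the base of the ribosomal stalk. Its signals were 41720, 38060 and 41780 in both I, II and III and 42200, 56310 and 45980 in osteocalcin I, II and III, so the nearest colonies were almost equal. The difference was -0.24 (SE 0.35, adjusted p = 0.9998 by limma) and -0.12 without osteocalcin II or -0.04 with quantile normalization.

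The comparison of osteocalcin with neither colonies, which shares its osteocalcin colonies with the first, asks what accompanies osteocalcin alone. The mean was higher in osteocalcin colonies for 26 genes and lower for 17, with a median of +0.10 log2 units, against +0.03 and 51.9% higher over all probe sets. Limma called 0 members (0 at an unadjusted p under 0.05), against 0.0% of all probe sets (0 of 19312, 1448 at an unadjusted p under 0.05). The median turned to -0.08 without neither I and to -0.06 without osteocalcin II, and was +0.31 without neither II, when 36 of 43 genes were higher. Scaled to the array median, which moved the median of all probe sets to +0.16, 39 of 43 genes were higher (median +0.38), and with quantile normalization 20 of 43 (median -0.03). No station of chip A held colonies of both types, so station and type cannot be told apart except through the both-marker colonies; with station as a block the median was +0.73.

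Osteocalcin colonies lay above all neither colonies for 5 genes, 11.6% of the members against 6.34% of all probe sets, and below them for 0, against 5.87%. Rpsa, read on its brightest probe set, was not among these 5 genes, whereas on its other probe sets these groups did not overlap. Rpl4, a large-subunit protein that lines the exit tunnel, had signals of 30510, 37360 and 30980 in osteocalcin I, II and III and 26670, 17140 and 15720 in neither I, II and III, a difference of +0.76 (SE 0.35, adjusted p = 0.667 by limma). The lowest osteocalcin colony stood clear of neither II and neither III and close to neither I. Rps3, at the mRNA entry of the small subunit, had 32220, 34970 and 28010 against 19260, 15980 and 20960 (+0.76, SE 0.37, adjusted p = 0.680), with +1.63 for station as a block. Quantile normalization gave +0.48 for Rps3, +0.45 for Rpl4 and +0.41 for Rpl12. Rpl6 had 38100, 54390 and 43120 against 37110, 9195 and 33220 (+0.98, SE 0.50, adjusted p = 0.681), and +0.35 without neither II, whose value was the lowest by far. The neither colonies had 29780, 23840 and 38730 in Rpl12, all below the osteocalcin values given above (+0.66, SE 0.35, adjusted p = 0.695). Rpl21 had 17420, 24200 and 17770 against 12540, 16670 and 17400, where osteocalcin I and neither III were almost equal. The difference was +0.34 (SE 0.36, adjusted p = 0.832 by limma), with +0.19 without osteocalcin II and +0.20 without neither I. It was +0.08 with quantile normalization, +0.62 scaled to the array median and +1.12 with station as a block.

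The comparison of both with neither colonies asks what accompanies the 2 markers together, and it shares a group with each of the others. Members were evenly divided, with 20 higher and 23 lower in both-marker colonies and a median of -0.02 log2 units, where all probe sets had +0.01 and 50.8% higher. Limma called 0 of 43, against 0.0% of all probe sets (0 of 19312, 1883 at an unadjusted p under 0.05), and 4 members had an unadjusted p under 0.05. The median ran from -0.26 without both III to +0.16 without neither II. Scaled to the array median it was +0.30, with 32 of 43 genes higher, beside +0.20 for all probe sets. Within station 2, which held both III and the neither colonies, it was +0.33, a value that rests on 1 both-marker colony, assumed to vary like the others.

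Both-marker colonies lay above all neither colonies for 3 genes, 6.98% of the members against 6.34% of all probe sets, and below for 1, 2.33% against 8.31%. Rpl6 had 55410, 41450 and 57940 in both I, II and III, a difference of +1.17 from neither colonies (SE 0.50, adjusted p = 0.487 by limma) and +0.54 without neither II. Rps3 had 32350, 23530 and 50790 (+0.85, SE 0.37, adjusted p = 0.494), with +0.56 without both III and +1.44 with station as a block. Rpl3, a protein near the peptidyl transferase centre, had 59110, 63000 and 64810 in both-marker colonies and 36810, 54960 and 45130 in neither colonies (+0.47, SE 0.38, adjusted p = 0.684), or +0.78 scaled to the array median. The both-marker colonies were close together in this gene, and neither II came nearest to them.

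The 1 gene on the lower side was Rps27l, a paralog of Rps27 that p53 induces in human cells. Its signals were 1146, 1111 and 2290 in both I, II and III and 3112, 2323 and 3051 in neither I, II and III, and both III and neither II almost met. The difference was -0.86 (SE 0.35, adjusted p = 0.474 by limma), with -0.27 within station 2 and -0.57 scaled to the array median. Osteocalcin colonies, with 1968, 2769 and 2925, overlapped both other types.

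**Figure D2:**
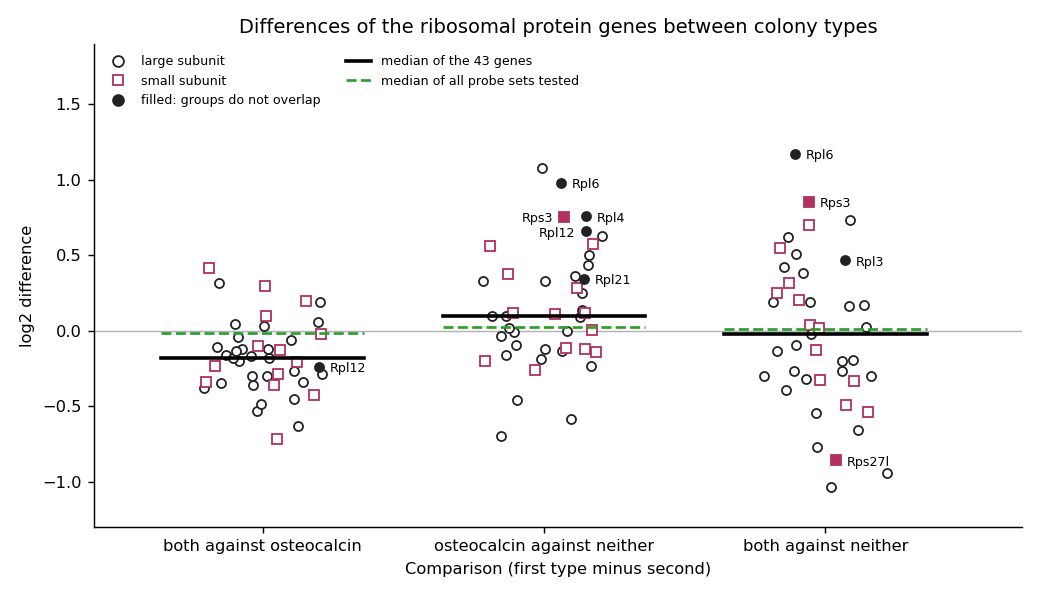
The vertical axis gives the log2 difference (first type minus second) of each of the 43 tested genes in the 3 comparisons, with circles for large and squares for small subunit genes and filled symbols for genes whose groups do not overlap. The solid line, the members' median, lies at -0.18, +0.10 and -0.02, and the dashed line, the median of all probe sets tested, lies close to 0 in each.

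Neither II was the colony in which the members disagreed most. Its gaps to the median of the other 8 colonies had an SD of 0.83 log2 units over the 43 genes, against 0.30 to 0.52 in the other colonies. In that colony 7 genes lay over 1 log2 unit above and 3 over 1 unit below the others, 23.3% of the members, against 15.5% of all kept probe sets of chip A. Neither III showed the reverse: 31.9% of all its kept probe sets lay that far out, but 2 members, 4.65%. The members' spread in neither II stands beside the 3′ ratios given above, and the part of RNA integrity in it was not tested.

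The genes furthest out in neither II were Rpl6 and Rplp0 on the low side and Rpl37a, Rpl13a and Rps15a on the high side. Rplp0, the stalk protein that anchors Rplp1 and Rplp2, had signals of 19970, 42570 and 40060 in osteocalcin I, II and III, 25100, 17340 and 38020 in both I, II and III and 20700, 7157 and 23690 in neither I, II and III. Neither II thus lay well below every other colony, 1.74 log2 units below their median. Osteocalcin colonies differed from neither colonies by +1.08 in Rplp0 (SE 0.51, adjusted p = 0.674 by limma) and by +0.55 without neither II; for both against neither colonies the values were +0.73 (SE 0.51, adjusted p = 0.629) and +0.20, and +0.45 without both III. With station as a block the Rplp0 differences were +1.94 and +1.31. Rpl37a, a zinc-binding protein of the large subunit, had 85220 in neither II and 26030 to 45870 elsewhere. Rpl35, next to the exit tunnel, had 99490 there and 40020 to 78250 elsewhere, and Rpl34 had 48010 against 17670 to 36030. Among genes with a promoter window, the median gap in neither II was +0.29 for the 23 with a pyrimidine run of 8 or more bases and +0.09 for the 13 with a shorter one. The gaps ran from -1.74 to +1.24 in the first and from -2.17 to +1.07 in the second group, so they overlapped widely. A difference between these groups was not particular to neither II. In both III the median gaps were +0.57 for the longer and +0.22 for the shorter runs, and in neither I -0.41 and -0.29. In osteocalcin I they were nearly equal (-0.21 and -0.22).

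**Figure D3:**
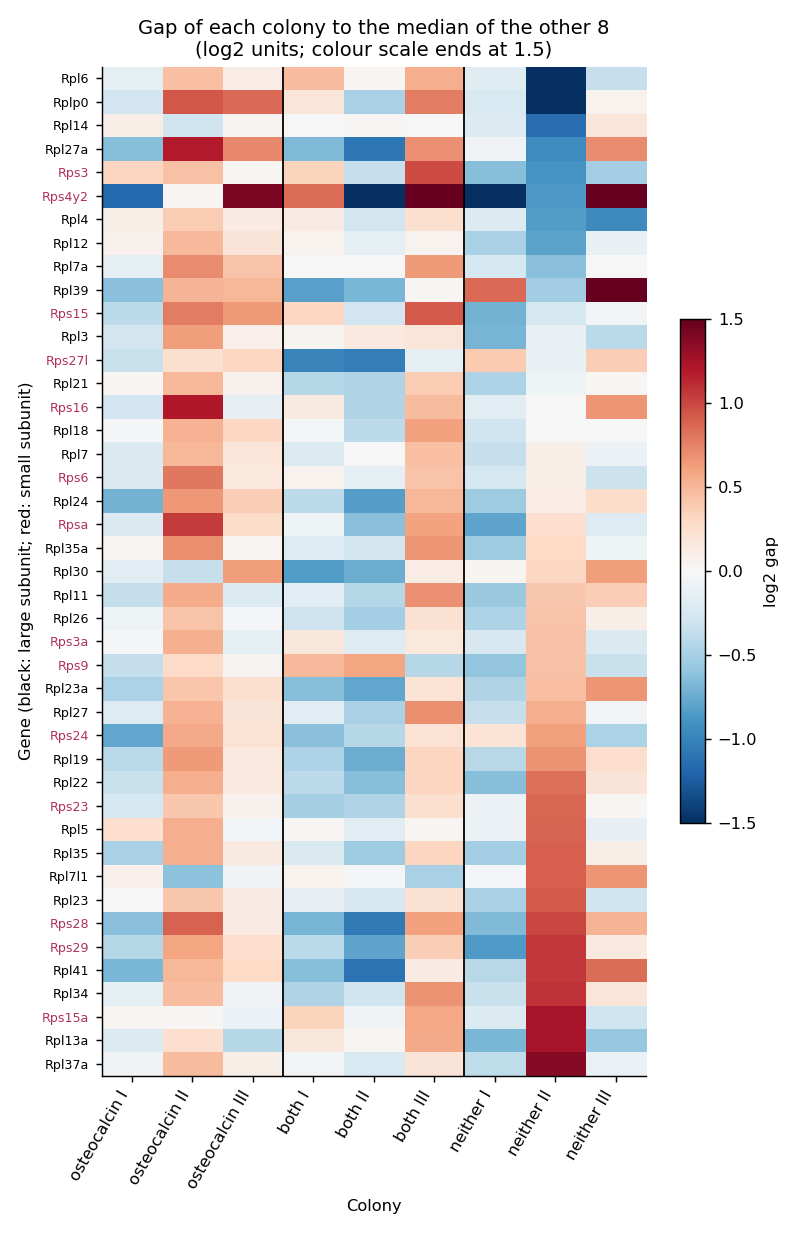
Rows are the 43 tested genes, sorted by their gap in neither II, and columns the 9 colonies; colour gives the gap of a colony to the median of the other 8 in log2 units, with red higher, blue lower and the scale ending at 1.5. Osteocalcin II and both III are red and both II and neither I blue in most rows, while neither II runs from -2.17 in Rpl6 to +1.37 in Rpl37a.

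Different probe sets of one gene went apart in the same colony. Of the 7 genes with several probe sets, 6 had a pair that pointed opposite ways in at least 1 comparison: Rpl13a, Rpl14, Rpl24, Rpl7l1, Rps24 and Rpsa. The second probe sets of Rpl14 and Rps24 had not passed the filter. Rpsa, which is both a small-subunit protein and the laminin receptor, had 3 probe sets. The name of the brightest, on which the gene was read, ends in _s_at. The name of the dimmest ends in _x_at and that of the remaining probe set in plain _at. The brightest gave 29470 in neither II, inside its range of 15680 to 51220 in the other colonies, whereas the second gave 2709 against 9608 to 33090. On the plain _at probe set neither colonies lay below both-marker colonies by 1.72 log2 units (SE 0.54, adjusted p = 0.429 by limma), and on the brightest by 0.20. Osteocalcin colonies lay above all neither colonies on the plain _at (+1.64) and the _x_at probe set (+0.59), but overlapped them on the brightest (+0.56). With _s_at and _x_at probe sets left out, osteocalcin colonies lay above all neither colonies for 6 members and both-marker colonies for 4.

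Rpl7 showed the same division. Its brighter probe set gave 40980 in neither II against 31590 to 54440 elsewhere, and its other one 1813 against 8061 to 16290. Rpl7l1, a paralog of Rpl7 with a role in ribosome assembly, gave 5404 against 1778 to 4522 on one probe set and 576 against 1221 to 2527 on the other. In neither II, 7 of the 9 pairs of probe sets lay on opposite sides of the other colonies, whereas those of Rpl24 had nearly equal gaps (+0.11 and +0.0025). The 7 include the pairs of Rpl14 and Rps24, whose second probe sets were not kept, and more than 1 pair of Rpsa. Such a count was not made for the other colonies. Between the probe sets of a gene, r over the 9 colonies ran from -0.527 (Rpl14) to 0.899 (Rpsa). The positions of the probe sets in their transcripts were not used here.

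**Figure D4:**
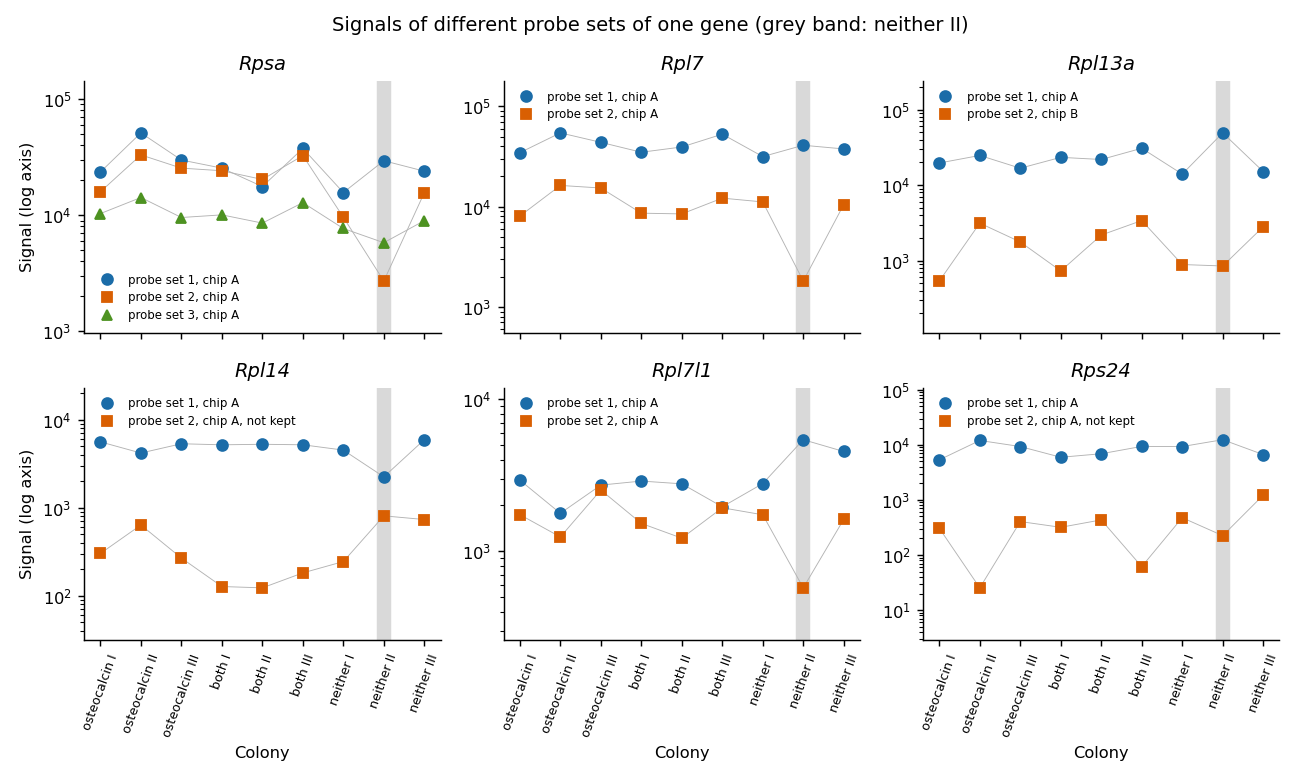
Each panel plots the signals of the probe sets of one gene (log axis) in the 9 colonies, with 1 symbol per probe set and a grey band over neither II. In Rpsa, Rpl7 and Rpl7l1 one probe set drops in neither II to 2709, 1813 and 576, while another stays within or above the range of the other colonies.

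The paralogs Rpl3l and Rps4y2 had low signals in some or all colonies. Rpl3l, expressed in heart and skeletal muscle, had signals of 29.1 to 543 and was not kept. Rps4y2, a paralog of Rps4x, had 136, 460 and 1269 in osteocalcin I, II and III, 778, 34.2 and 3135 in both I, II and III and 51.3, 224 and 1394 in neither I, II and III. Each type held dim and brighter colonies, and the types overlapped. Rpl39, a small protein in the exit tunnel, had its highest signal in neither III (10350, against 1946 to 5241 elsewhere). Its both-marker colonies were lower than neither colonies by 1.04 log2 units (SE 0.47, adjusted p = 0.506 by limma), with overlapping groups. Rpl22 (33500 to 82130) and Rps3a (54040 to 86240) were bright in all 9 colonies.

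Other mRNAs listed as having a TOP start ordered the colonies in another way. The list is not confined to the translation machinery, since it also holds Vim, Hnrnpa1, Nap1l1 and Gas5. Of 20 listed mRNAs with a TOP start, such as those of the elongation factors, 13 were tested, and 11 had a higher mean in osteocalcin than in neither colonies (median +0.38) and 11 in both than in neither colonies (median +0.51). None was called by limma (3 and 4 at an unadjusted p under 0.05). Of all 19312 probe sets, 51.9% and 50.8% were higher, and 1448 and 1883 had an unadjusted p under 0.05 by limma. All neither colonies were lowest without overlap for 2 and 4 of the 13, against 6.34% of all probe sets in each comparison. The mean log2 level of the 13 was 13.51, 13.72 and 13.44 in osteocalcin I, II and III and 13.53, 13.57 and 13.73 in both I, II and III, above the 13.21, 12.94 and 12.99 of neither I, II and III, all 3 of them on station 2. Over the 9 colonies this mean had r = 0.162 with that of the ribosomal protein genes.

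Eef1a1, which brings aminoacyl-tRNA to the ribosome, and Naca, which binds nascent chains at the exit tunnel, were picked for display after their values were seen. Eef1a1 had signals of 38670, 30520 and 30040 in osteocalcin I, II and III, 66500, 49940 and 33430 in both I, II and III and 21900, 8144 and 14130 in neither I, II and III. All neither colonies lay below all others, by 1.25 log2 units against osteocalcin (SE 0.43, adjusted p = 0.611 by limma) and 1.80 against both-marker colonies (SE 0.43, adjusted p = 0.301), and with station as a block by 0.47 (SE 0.70, adjusted p = 0.864) and 1.28. Neither II was the lowest colony, and without it the difference from osteocalcin colonies was 0.89. With 1 colony left out, the difference from both-marker colonies ran from 1.44 to 2.14. Naca had 13940, 18580 and 14880, then 16410, 13610 and 21930, then 9338, 7676 and 8468 in the same order, with differences of 0.87 (SE 0.33, adjusted p = 0.621) and 0.98 (SE 0.33, adjusted p = 0.434). The first of these was 1.42 with station as a block and 0.55 with quantile normalization. Rack1, a scaffold on the small subunit that the naming rule does not reach, had r = 0.867 with the mean of the ribosomal protein genes.

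Nuclear genes for mitochondrial proteins had colony means closer to those of the members. The 69 tested mitochondrial ribosomal protein genes had r = 0.851 with the members' mean over the 9 colonies and the 82 respiratory chain genes r = 0.899, again as a description. Between both and osteocalcin colonies 55 of the 69 and 71 of the 82 had a lower mean, with medians of -0.19 and -0.31, and 0 were called by limma (0 and 1 at an unadjusted p under 0.05). Between osteocalcin and neither colonies the medians were +0.18 and +0.30. Genes of ribosome assembly, such as those of nucleolar proteins and RNA polymerase I, had another order: 38 tested genes had r = 0.121, with medians of -0.04, +0.25 and +0.15 in the 3 comparisons. The 17 tested genes of a list of regulators, among them Mtor, Mycn and Larp1, had r = -0.647. Myc itself was not tested. The list mixes activators such as Rheb with inhibitors such as Tsc1 and Tsc2, so its mean gives no direction of mTOR signalling.

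The markers of cell types were read as summed signals of the kept probe sets. Such a sum follows its brightest probe set and does not show which gene differs. Among osteoblast markers 3 of 7 measured were kept, namely Spp1, Col1a1 and Dmp1. Alpl, Ibsp, Phex and Bglap, the osteocalcin gene by which colonies were typed, were not kept. The sum of the 3 was 93280 to 337900 in osteocalcin, 92020 to 175800 in both and 225200 to 263300 in neither colonies. Of the adipocyte markers 2 of 7 were kept, without Fabp4, Plin1, Lpl, Cebpa and the adipsin gene Cfd (2722 to 4030, 1974 to 5287 and 2880 to 3357). The 4 smooth muscle markers kept summed to 60380 to 236800, 10490 to 142800 and 21690 to 113900. Endothelial (2 of 5 kept) and blood cell markers (4 of 6 kept, without Ptprc and Hbb) summed to at most 4875 and 7194. The part of the mix of cells in the ribosomal protein levels was not tested.

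**Figure D5:**
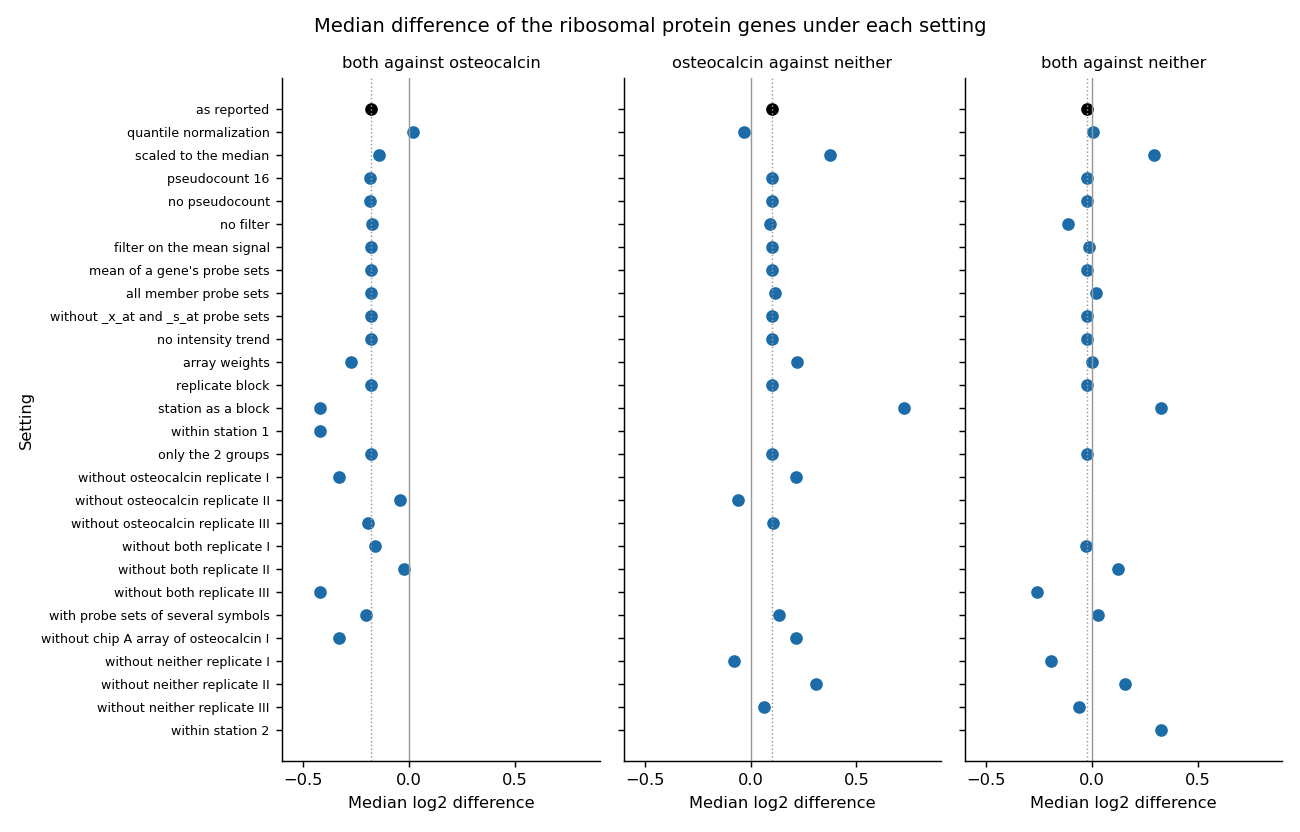
The horizontal axis gives the median log2 difference of the ribosomal protein genes in each comparison and the vertical axis the processing setting, with the reported value in black, a solid line at 0 and a dotted line at the reported value; signals without rescaling lie outside the axis and are not drawn. Points of both against osteocalcin run from -0.42 to +0.02, and those of the other 2 comparisons lie on both sides of 0.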

How the data were processed

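Expression was measured on 18 Affymetrix arrays, chip A and chip B for each of 9 colonies. For each probe set the authors deposited a signal intensity, linear and not logged, made with MAS5 per the submitters' processing notes, which name no version. Each array was rescaled to a 2%-trimmed mean of 1500, and log2(signal + pseudocount) was taken, the pseudocount being the median over 9 arrays of the 25th percentile (239 on chip A, 336 on chip B). Controls (57 on each chip) were excluded. Probe sets with a signal above the array median on at least 3 of 9 arrays were kept, 9425 on chip A and 9887 on chip B. For each chip a model of the 3 group means was fitted (limma 3.58.1, R 4.3.3; moderated variances trended on intensity, two-sided), and Benjamini-Hochberg adjustment ran over the 19312 p-values of the 2 chips; a call is an adjusted p under 0.05. For a single value, the smallest exact permutation p in this design is 0.1. The number of arrays limits the precision. A gene was read on 1 probe set, chip A before chip B and then the brightest. Symbols came from the platform annotation; 44 of 46 member genes had a RefSeq gene record.

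The members, lists and tests were chosen with earlier results of these data known. Named genes were, per comparison, at most 5 members in each direction whose groups did not overlap, taken by p, then Rps23, Rps28, the stalk genes, Rpsa, paralogs, the 3 most and 3 least variable members, the 5 most and 5 least correlated with the others, and members whose probe sets disagree. Fluidics stations and run days came from the deposited array records; no other entry of those records was used. Alternatives covered scaling, pseudocount, filter, probe set choice, weights, station and replicate blocks and each colony left out. The model fit was tested on simulated data for recovery of the mean difference only. The simulated probe sets varied independently, without a station effect or a colony with deviant controls, so that test does not cover these features. Figures were drawn with matplotlib 3.10.9 in Python 3.11.15.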

Additional observations from a re-analysis of the deposited data

How the results depend on the processing

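Limma called 0 member genes in each comparison under every alternative that gave a value (24, 23 and 23 of them); with array weights 64 of all probe sets were called higher and 23 lower in both-marker than in osteocalcin colonies, and 10 higher than in neither colonies, none of a member gene. Without rescaling, where the dim chip A array of osteocalcin I pulls down its group, the median difference was +1.24 for both against osteocalcin and -1.31 for osteocalcin against neither colonies. In that setting Rpl12 (+1.22), Rps23 (+1.20) and Rps28 (+1.06) turned in the first comparison, and Rpl4 (-0.68), Rps3 (-0.69), Rpl6 (-0.47), Rpl12 (-0.80), Rpl21 (-1.04), Rplp0 (-0.32), Eef1a1 (-0.20) and Naca (-0.49) in the second. Quantile normalization turned Rps23 (+0.46) and Rps28 (+0.023) in the first. With station as a block the median was +0.73 for osteocalcin against neither and +0.33 for both against neither colonies. The +0.33 equals the value within station 2 by layout and is no separate check, since only both III shares that station with the neither colonies. Scaling to the array median gave +0.30 for both against neither colonies and moved the median of all probe sets to +0.20; the cause of these shifts was not tested. Leaving out 1 colony gave -0.42 to -0.03, -0.08 to +0.31 and -0.26 to +0.16 in the 3 comparisons. The labels do not say whether a colony number shared by the types marks a common source; with it as a replicate block the medians stayed at -0.18, +0.10 and -0.02. Over member genes the deviations of same-numbered colonies had r from -0.105 to 0.635, above 0.1 in most but not in every pair and highest among the 3 colonies numbered III (0.484 to 0.635). Colonies of different numbers and types had r from -0.642 (osteocalcin I with both III) to 0.612 (osteocalcin I with both II), so the ranges overlapped. Chosen after seeing the data were a count with the probe sets of several symbols (-0.21, +0.13 and +0.03) and a fit without the chip A array of osteocalcin I (-0.33 and +0.22).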

Other observations

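The 34 chip A probe sets that carry a ribosomal protein symbol beside other symbols took from 3.59% of the array signal in both II to 6.15% in osteocalcin II, where the 50 single-symbol probe sets took 4.33% and 6.92%; both sets were highest in osteocalcin II. In neither II they took 5.33% and in neither I 3.77%. Rpl28, read on chip B only, had signals of 262 to 503 in 8 colonies and 1590 in neither I, and Rpl39l1, also on chip B, 112 to 764 and 1652 in the same colony.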
